A study of Mus musculus with 4 samples.

Results

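The potassium channel genes of the mouse heart were taken as every gene whose symbol starts with Kcn, among probe sets that the platform annotation assigns to 1 symbol alone. On this array 167 probe sets met the rule. They represented 84 of the 18193 genes tested, each by its probe set of highest mean over the 4 arrays. Of the 84, 31 encode voltage-gated pore subunits, 15 inward rectifiers, 12 two-pore subunits, 8 calcium- or sodium-activated pore subunits and 15 accessory subunits, and the other 3 are non-coding transcripts. The samples were hearts of mice labelled C57B6, taken at baseline. A group of 2 came from mice aged 3.5 months with the GSK-3beta S9A knock-in, in which an alanine replaces the serine whose phosphorylation inhibits the kinase. The other 2 came from wild-type mice aged 3.6 months, and no other allele or treatment is labelled. Sex, allele copy number, time of day and pooling of hearts are not labelled. Whether replicates are separate animals is not labelled either, so the p-values reflect only how far these samples spread, which may be technical variation.

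Potassium channels carry the outward currents that repolarise a heart cell after each beat and the inward rectifier current that holds its resting potential. In the mouse ventricle, repolarisation is fast and rests largely on the transient outward current, whose pore is formed by the products of Kcnd2 and Kcnd3 and whose size depends on the accessory protein KChIP2, the product of Kcnip2. Voltage-gated, inward rectifier and two-pore channels differ in how their pores are built and opened, and accessory subunits alter their gating or their transport to the membrane.

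No potassium channel gene passed the test over all genes. Differences are knock-in minus wild-type on the log2 scale, and p-values come from a limma fit over the 18193 genes, two-sided, with Benjamini-Hochberg adjustment at a threshold of 0.05. Of the 84 genes 0 had an adjusted p under 0.05, where 0.00550% of all genes did, and the smallest adjusted p among them was 0.518. An unadjusted limma p under 0.05 was found for 5, or 5.95%, against 7.39% of all genes. These were Kcnj14, Kcnk2 and Kcnn2 with higher values in knock-in hearts (3 of 84, where 4.40% of all genes were higher) and Kcnv2 and Kcna5 with lower values (2 of 84, where 2.99% were lower). The share of channel genes was thus near or under that of all genes. With each array centred on its median the split was 5 higher and 1 lower, without wild-type 1 it was 5 and 0, and without knock-in 2 it was 0 and 0.

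**Figure D1:**
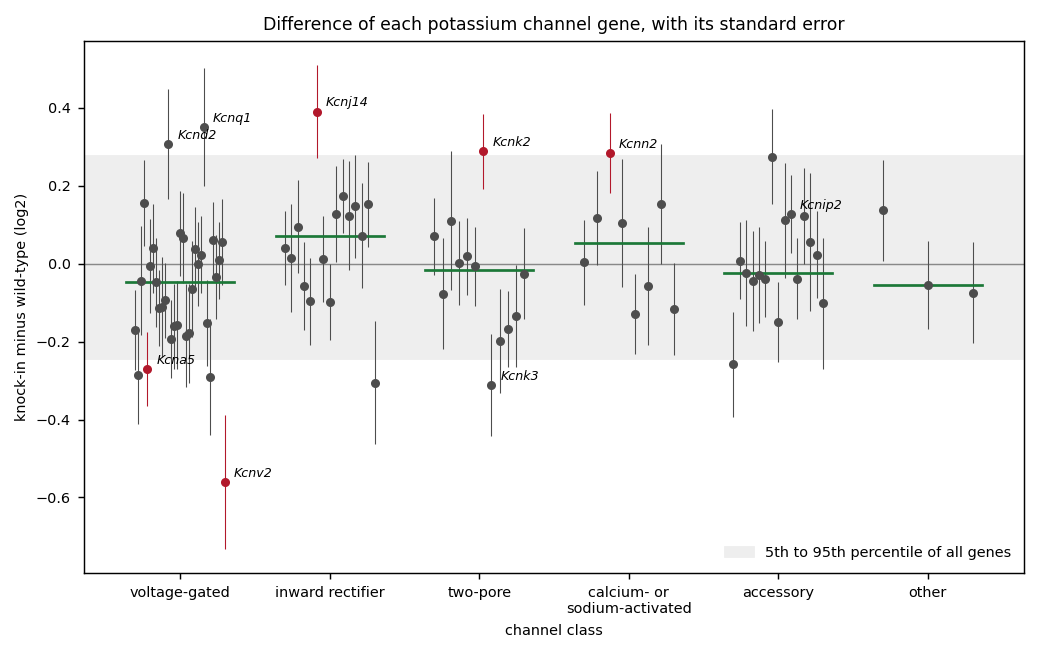
Difference in log2 expression (knock-in minus wild-type, vertical axis) of each of the 84 potassium channel genes by class, with bars for its standard error, green lines for class medians and red points for an unadjusted limma p under 0.05. The grey band spans the 5th to the 95th percentile of all genes, from -0.25 to 0.28, and 7 channel genes lie below it and 5 above it.

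The differences were small in both directions. Their median was -0.01, against 0.00 for all genes, and the median size was 0.10, against 0.09. The difference was above 0 in 40 channel genes, where 50.2% of all genes were above 0, and below 0 in 44. The widest were -0.56 for Kcnv2 and 0.39 for Kcnj14, and a size of at least 0.3 was seen for 6 channel genes (7.14%) and for 6.97% of all genes. Arrays of the groups lay apart in 29 of the 84 (34.5%, against 36.5% of all genes), with the knock-in pair above the wild-type pair in 12 and below it in 17, where 19.6% and 17.0% of all genes were so placed. The 95% confidence interval of the difference, unadjusted for the number of genes, lay inside a 1.5-fold change either way for 76 of the 84 and inside a 2-fold change for all 84. Of all 18193 genes 16267 and 18007 lay inside these bounds, so the channel genes were much like the rest.

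The median difference of each class moved with the array left out, and no test between classes was made. Of the 31 voltage-gated genes 11 lay above 0 and 20 below it, with a median of -0.05. That median was -0.01 with each array centred, and it ran from -0.11 without wild-type 2 (8 above 0 and 23 below) to -0.02 without wild-type 1. Among the 15 inward rectifiers 11 lay above 0 (73.3%, against 35.5% of the voltage-gated genes and 50.2% of all genes), with a median of 0.07. It was 0.11 with each array centred and -0.01 with averaged probe sets, where 7 lay above 0, and it ran from -0.03 without wild-type 2 to 0.17 without knock-in 1. For the 12 two-pore genes the median was -0.02 (0.02 with each array centred or quantile normalized again), and it ran from -0.11 without wild-type 2 to 0.03 without wild-type 1. For the 15 accessory genes it was also -0.02 (0.02 under either of those scalings, and -0.04 with averaged probe sets), and it ran from -0.07 without wild-type 2 to 0.06 without knock-in 2. The 8 calcium- or sodium-activated genes had a median of 0.05 (0.09 with each array centred), from -0.03 without wild-type 2 to 0.06 without wild-type 1. Among genes above the median level of all genes, the medians were 0.15 for 5 inward rectifiers, -0.06 for 10 voltage-gated, -0.04 for 4 accessory, 0.00 for 3 calcium- or sodium-activated and -0.22 for 2 two-pore genes.

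Only 25 of the 84 had a mean above 7.11, the median level of all genes, so most channel probe sets were dim, and the values carry no detection call. The brighter 25 had 3 genes with an unadjusted limma p under 0.05 (12%, against 9.73% of all genes above the median), and the dimmer 59 had 2 (3.39%, against 5.05%). Between arrays, the channel genes differed most within the wild-type pair. The median absolute log2 difference over the 84 was 0.159 between wild-type 1 and wild-type 2 and 0.115 between the knock-in arrays, while pairs from different groups ran from 0.113 to 0.150. Wild-type 1 held the highest of the 4 values for 37 channel genes (44%, against 32.9% of all genes), and wild-type 2 the lowest for 30 (35.7%, against 29.9%). The median of an array over all probe sets was 5.97 to 6.04.

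**Figure D2:**
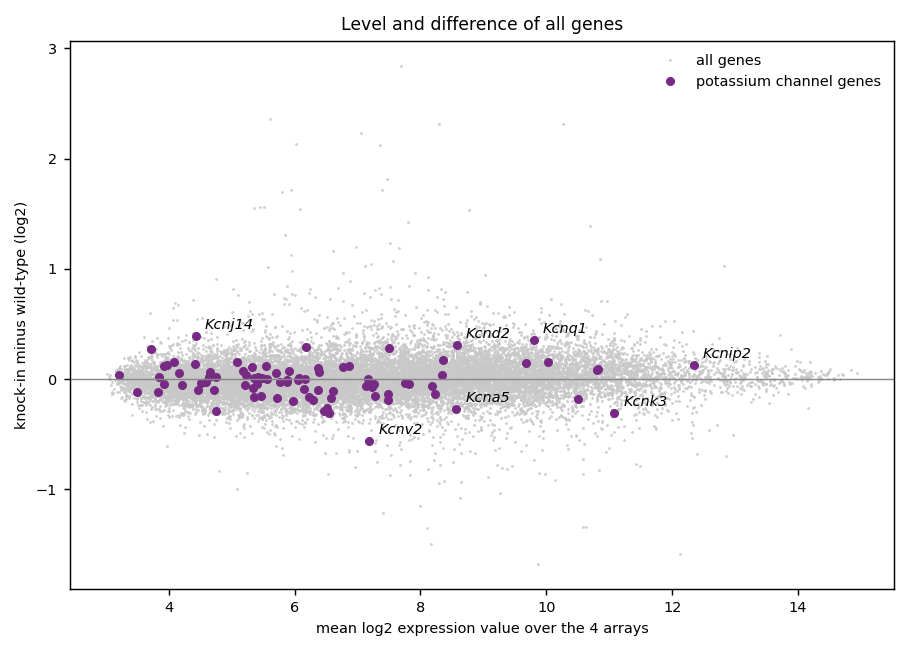
Mean log2 expression over the 4 arrays (horizontal axis) and knock-in minus wild-type log2 difference (vertical axis) of all 18193 genes (grey) and of the 84 potassium channel genes (purple). The channel genes lie between -0.56 and 0.39, within the cloud of all genes, which reaches from -1.67 to 2.84.

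Among the subunits of the fast transient outward current, the values of Kcnd2 were higher in knock-in hearts, those of Kcnd3 lower and those of Kcnip2 close together, and none passed. Kcnd2, which encodes the pore subunit Kv4.2, was at 8.27 and 8.58 in wild-type and at 8.63 and 8.84 in knock-in hearts. The groups did not overlap, but wild-type 2 and knock-in 1 were close. The difference was 0.31 ± 0.14 (SE; n = 2 per group), or 1.24-fold, with an adjusted limma p of 0.701 and a 95% interval from -0.04 to 0.65. Leaving out wild-type 1 gave 0.15 and leaving out wild-type 2 gave 0.46. Kcnd3, the gene of the related pore subunit Kv4.3, was at 7.60 and 7.55 in wild-type and at 7.44 and 7.32 in knock-in hearts. Here the knock-in pair lay below the wild-type pair, with a difference of -0.19 ± 0.10 (SE) and an adjusted p of 0.736 from limma.

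Kcnip2 was bright on every array, at 12.34 and 12.22 in wild-type and at 12.42 and 12.39 in knock-in hearts. Both knock-in values were above both wild-type values by a narrow margin. The difference was 0.13 ± 0.10 (SE), or 1.09-fold, with an adjusted limma p of 0.842, and its 95% interval from -0.12 to 0.37 lay inside a 1.5-fold change. Other probe sets of Kcnip2 were much dimmer, with means of 8.13 and 5.86 against 12.34, and overlapped between groups. They gave -0.03 and -0.16, so that the sign turned (to -0.02) once probe sets were averaged. It also turned when the one listed first was taken. Kcna4, which encodes Kv1.4 of the slow transient outward current, was dim, at 5.08 and 4.95 in wild-type and 5.25 and 5.09 in knock-in hearts, with a difference of 0.15 ± 0.11 (SE).

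**Figure D3:**
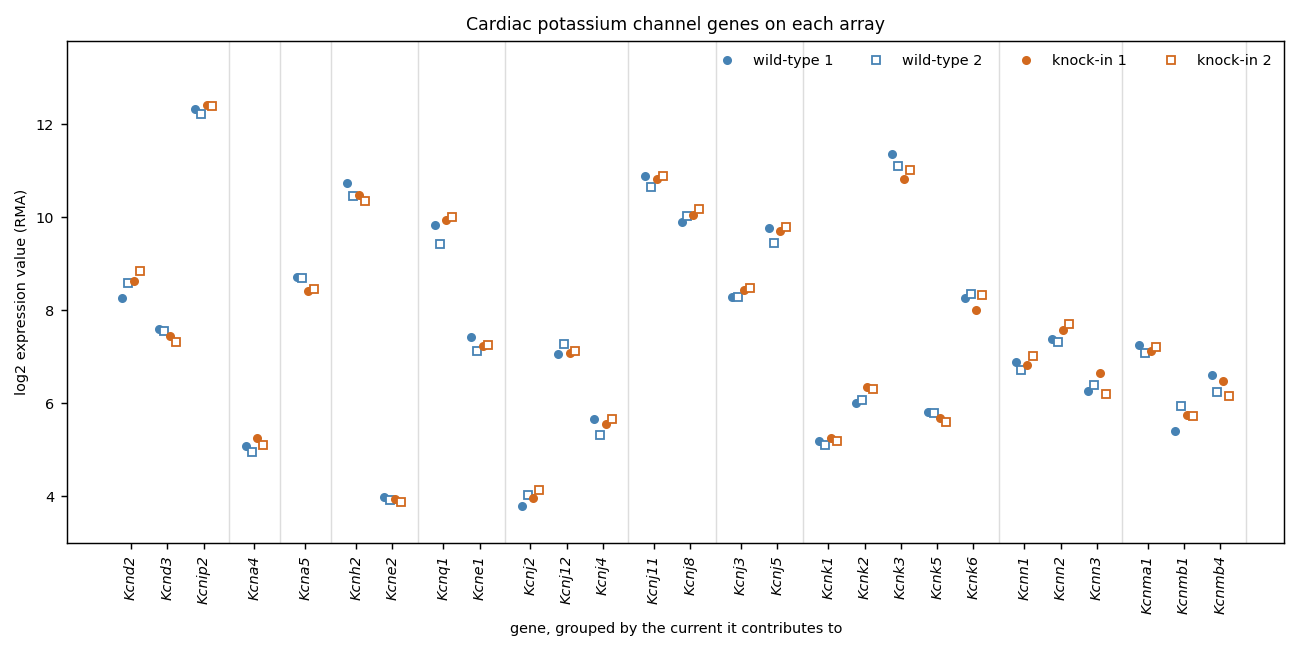
Log2 expression value (vertical axis) of the 27 measured potassium channel genes of known cardiac currents, on each of 2 wild-type arrays (blue) and 2 knock-in arrays (orange), grouped by current. The 4 points of Kcnip2 lie between 12.22 and 12.42, while those of Kcnq1 spread from 9.42 to 10.01, and levels of different genes rest on different probes and are not comparable.

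The bases before the start sites of Kcnip2, Kcnd2 and Kcna5 are given because the first pair encodes the fast transient outward channel and Kcna5 is the brightest channel gene of this set with an unadjusted limma p under 0.05, and because the values of clock genes that act through short promoter motifs differed between the same arrays. Dbp, a clock output gene, was at 9.42 and 8.79 in wild-type and at 11.52 and 11.33 in knock-in hearts. Arntl, which encodes the clock activator BMAL1, was at 8.52 and 9.05 against 7.22 and 7.64. The values of both lay apart by group, with adjusted p of 0.0724 and 0.237 from limma. The sequences are RefSeq promoter windows of build GRCm38.p6, cut to the 250 bases before the start, at chr19:45816064-45816313 (minus strand), chr6:21215096-21215345 (plus strand) and chr6:126535556-126535805 (minus strand). Capitals mark a CACC box, the kind of site that Krüppel-like factors bind.
Kcnip2: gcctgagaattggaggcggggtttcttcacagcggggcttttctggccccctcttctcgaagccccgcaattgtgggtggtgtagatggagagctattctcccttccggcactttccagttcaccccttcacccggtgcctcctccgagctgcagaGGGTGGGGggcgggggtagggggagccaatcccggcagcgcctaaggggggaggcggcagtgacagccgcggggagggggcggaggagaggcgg
Kcnd2: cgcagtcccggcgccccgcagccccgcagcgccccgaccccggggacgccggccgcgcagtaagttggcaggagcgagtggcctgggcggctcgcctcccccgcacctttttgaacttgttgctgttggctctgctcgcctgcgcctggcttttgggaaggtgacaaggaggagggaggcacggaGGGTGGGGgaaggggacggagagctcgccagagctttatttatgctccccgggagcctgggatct
Kcna5: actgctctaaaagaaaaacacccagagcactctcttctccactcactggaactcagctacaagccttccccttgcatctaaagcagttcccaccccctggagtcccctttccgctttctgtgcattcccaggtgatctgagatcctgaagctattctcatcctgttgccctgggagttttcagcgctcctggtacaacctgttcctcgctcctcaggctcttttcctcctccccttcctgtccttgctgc

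In these windows 4 motifs were searched on both strands, and none of the matches shown overlaps another. They were the E-box CACGTG of BMAL1 and CLOCK, the D-box TTATGTAA of DBP and related factors, the TATA box TATAAA and the CACC box CCCCACCC. Kcnip2 and Kcnd2 each held 1 CACC box on the minus strand of the window, starting 94 and 65 bases before the start site, and the window of Kcna5 held none of the 4 motifs. RefSeq windows matched 64 of the 84 members, with 89 windows in all. The CACC box was in 19 of the 89 (21.3%) and in 9.05% of all 32851 windows, and the median GC content was 58.8% and 52.4%. The E-box was in 5 of the 89 (5.62%, against 6.02% of all), those of Kcnab1, Kcne4, Kcnj2 and Kcnn4, while the TATA box was in 3 (3.37%, against 12.4%) and the D-box in 0 (against 0.819%). The unadjusted limma p was above 0.05 for all 4 genes with an E-box. Klf15, a Krüppel-like factor known to regulate Kcnip2 in the heart, was at 9.95 and 9.66 in wild-type and at 10.17 and 9.82 in knock-in hearts, which overlap.

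Of the delayed rectifier genes, the arrays of Kcna5 and Kcnq1 lay apart by group, in opposite directions. Kcna5 encodes Kv1.5, a pore subunit of the ultrarapid delayed rectifier. It was at 8.72 and 8.69 in wild-type and at 8.42 and 8.45 in knock-in hearts, with both groups tight and apart. The difference was -0.27 ± 0.10 (SE), or 1.21-fold lower, with an unadjusted limma p of 0.0276 and an adjusted p of 0.585. It stayed between -0.29 and -0.23 in the 12 alternatives. Those that change only the fit, the genes fitted or the choice of probe set could not move it, because Kcna5 has 1 probe set. Kcnq1, the pore gene of the slow delayed rectifier, was at 9.84 and 9.42 in wild-type and at 9.95 and 10.01 in knock-in hearts. The gap between the wild-type arrays was wider than that between wild-type 1 and either knock-in array. The difference was 0.35 ± 0.15 (SE), or 1.28-fold, with an adjusted limma p of 0.688, and leaving out wild-type 2 gave 0.14 and wild-type 1 0.56.

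Kcnh2, which encodes the ERG pore of the rapid delayed rectifier, was at 10.73 and 10.46 in wild-type and at 10.49 and 10.35 in knock-in hearts, with overlapping groups and a difference of -0.18 ± 0.13 (SE). The partner subunits of these channels differed less. Kcne1, the partner of the Kcnq1 product, was at 7.43 and 7.12 against 7.22 and 7.25, a difference of -0.04 (0.11 without wild-type 1), and Kcne2 was dim at 3.88 to 3.98 on all arrays.

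By the chosen probe sets, Kcnv2 had the widest difference and the smallest p of all 84 genes. It encodes Kv8.2, a silent subunit that forms channels only together with other Kv subunits. It was at 7.46 and 7.48 in wild-type and at 7.16 and 6.65 in knock-in hearts, so that both knock-in arrays lay below a tight wild-type pair and knock-in 2 lay lowest. The difference was -0.56 ± 0.17 (SE), or 1.48-fold lower, with an unadjusted limma p of 0.0159, an adjusted p of 0.518 and a 95% interval from -0.98 to -0.15. It was -0.31 without knock-in 2 and -0.82 without knock-in 1. Kcnq5, a gene of the M-current family, was dim at 5.03 and 4.76 in wild-type and 4.76 and 4.45 in knock-in hearts, a difference of -0.29 ± 0.15 (SE). The remaining 23 voltage-gated genes, among them the neuronal Kcna1 and Kcna2, had adjusted p from limma of 0.690 to 1 by their chosen probe sets. A probe set of Kcna1 with a mean of 6.40, against 6.59 for the chosen one, differed by -0.70 with the groups apart. That is wider than the difference of Kcnv2. The chosen probe set of Kcna1 gave -0.17, and its dimmer ones gave 0.11 and -0.46.

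The inward rectifiers that set the resting potential differed by less than their spread. Kcnj2, which encodes Kir2.1, had a single, dim probe set at 3.80 and 4.02 in wild-type and 3.95 and 4.12 in knock-in hearts. Kcnj12 (Kir2.2) was at 7.05 and 7.27 against 7.08 and 7.12, and Kcnj4 (Kir2.3) at 5.67 and 5.31 against 5.56 and 5.67. The groups overlapped for all 3, with differences of 0.13, -0.06 and 0.12.

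The pore genes of the ATP-sensitive channel, which opens when cellular ATP falls, were bright and close between groups. Kcnj11, the gene of its pore Kir6.2, was at 10.90 and 10.64 in wild-type and at 10.83 and 10.90 in knock-in hearts. Kcnj8 (Kir6.1), a pore typical of vascular smooth muscle and pericytes, was at 9.89 and 10.03 against 10.04 and 10.18, a difference of 0.15 ± 0.11 (SE). The values of Kcnj11 overlapped, and those of Kcnj8 lay apart by 0.01. The sulfonylurea receptor partners of these pores, Abcc8 and Abcc9, differed by 0.22 and 0.04, with adjusted p of 0.724 and 0.974 from limma.

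The acetylcholine-activated channel, which slows the heartbeat under vagal tone, is built from the products of Kcnj3 and Kcnj5. Kcnj3 was at 8.27 and 8.28 in wild-type and at 8.43 and 8.47 in knock-in hearts, a small gap between tight groups, with a difference of 0.17 ± 0.10 (SE) and an adjusted p of 0.756 from limma. A Kcnj3 probe set nearly as bright was at 8.32 and 8.23 against 8.23 and 8.33, which overlap, with a difference of 0.004. Its dimmer probe sets gave 0.17 and -0.11. Kcnj5 was at 9.76 and 9.44 against 9.71 and 9.79, which overlap, with a difference of 0.15 ± 0.13 (SE). Of the other inward rectifiers, Kcnj14 (Kir2.4) was the one with an unadjusted limma p under 0.05. It was dim, at 4.37 and 4.10 in wild-type and at 4.62 and 4.63 in knock-in hearts, which lay above both. The difference was 0.39 ± 0.12 (SE), or 1.31-fold, with an unadjusted limma p of 0.0163 and an adjusted p of 0.518. Kcnj9, of the same G-protein-gated family as Kcnj3, was at 6.92 and 6.47 against 6.43 and 6.35, a difference of -0.31 that rests on wild-type 1, the array farthest from the others. Kcnj16 (Kir5.1) differed by -0.10, and the remaining 5 inward rectifiers by -0.10 to 0.07.

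In the two-pore family, which carries background current, Kcnk3 was bright and lower in knock-in hearts by every probe set, without passing. Kcnk3 encodes TASK-1, an acid-sensitive channel that is abundant in atrial muscle. It was at 11.36 and 11.11 in wild-type and at 10.82 and 11.02 in knock-in hearts. The knock-in pair lay below the wild-type pair, with a difference of -0.31 ± 0.13 (SE), or 1.24-fold lower, an unadjusted limma p of 0.0529 and an adjusted p of 0.678. The difference was -0.18 without wild-type 1, and with its 3 probe sets averaged it was -0.41, with an unadjusted limma p of 0.00506 and an adjusted p of 0.350.

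Kcnk2, the gene of the stretch-activated channel TREK-1, was at 6.00 and 6.08 in wild-type and at 6.34 and 6.31 in knock-in hearts. Both groups were tight and lay apart, with a difference of 0.29 ± 0.10 (SE), or 1.22-fold, an unadjusted limma p of 0.0233 and an adjusted p of 0.562. The other two-pore genes differed less. Kcnk6 was at 8.26 and 8.34 against 8.01 and 8.33 (-0.13, and 0.02 without knock-in 1), Kcnk5 at 5.82 and 5.80 against 5.68 and 5.60 (-0.17), and Kcnk1 at 5.19 and 5.10 against 5.25 and 5.18 (0.07). Kcnk4, or TRAAK, a relative of TREK-1, was at 6.22 and 5.93 against 5.80 and 5.96 (-0.20), and Kcnk12 at 5.52 and 5.01 against 5.30 and 5.46 (0.11). The remaining 5 lay between -0.08 and 0.02.

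Small conductance channels open with cytosolic calcium and link calcium to repolarisation. Kcnn2 (SK2) was at 7.38 and 7.33 in wild-type and at 7.57 and 7.71 in knock-in hearts, with the groups apart. The difference was 0.28 ± 0.10 (SE), or 1.22-fold, with an unadjusted limma p of 0.0314 and an adjusted p of 0.598. Kcnn1 (SK1) was at 6.89 and 6.72 against 6.81 and 7.02, and Kcnn3 (SK3) at 6.25 and 6.39 against 6.65 and 6.20. Both of these overlapped between groups. Kcnn4, the intermediate conductance channel of blood and vessel cells, was at 7.59 and 7.50 against 7.36 and 7.47, a difference of -0.13 (0.16 with the first probe set). Kcnma1, the pore of the large conductance channel, was at 7.25 and 7.07 against 7.13 and 7.21, a difference of 0.00. Kcnt2 was at 3.79 and 4.21 against 4.21 and 4.10 and Kcnu1 at 3.63 and 3.47 against 3.53 and 3.34, while Kcnt1 differed by -0.06.

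None of the 15 accessory genes was under 0.05 before adjustment (limma). The smallest p was that of Kcne3, a small single-span subunit, which was dim at 3.68 and 3.50 in wild-type and at 3.76 and 3.97 in knock-in hearts (difference 0.27 ± 0.12 SE, adjusted p of 0.697 from limma). Kcnab1, a cytoplasmic beta subunit of Kv1 channels, was at 6.61 and 6.67 against 6.55 and 6.22. Its knock-in values lay below both wild-type values, mainly through knock-in 2, with a difference of -0.26 ± 0.14 (SE). Kcne4 was at 7.31 and 7.40 against 7.26 and 7.15 (-0.15). The beta subunits of the large conductance channel overlapped between groups, Kcnmb1 at 5.41 and 5.94 against 5.74 and 5.71 and Kcnmb4 at 6.60 and 6.23 against 6.48 and 6.16. Apart from Kcnip2, Kcne1 and Kcne2, the other 7 lay between -0.04 and 0.12. Of the 3 non-coding transcripts, Kcnq1ot1, which is transcribed across the Kcnq1 locus, differed by -0.07, Kcnmb4os1 by 0.14 and Kcnmb4os2 by -0.05. A Kcnq1ot1 probe set as bright as the chosen one (both with a mean of 7.23) differed by -0.42 with the groups apart. Its dimmer probe sets ran from -0.18 to 0.15, the latter with the first probe set, at a mean of 4.44.

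Several probe sets were available for 46 of the 84 genes. All probe sets of a gene had a difference above 0 in 3 of the 46 and below 0 in 15, and signs were mixed in 28. These signs were not counted over all genes, so the split cannot show a lean of the channel genes. By the chosen probe sets, 43.3% of all genes below the median level differed above 0, and 57.2% of those above it. Those with all probe sets below 0 included Kcnk3 (3 probe sets, -0.65 to -0.27) and Kcnd3 (4 probe sets, -0.23 to -0.12), and those with all above 0 were Kcna4, Kcnk1 and Kcnn1. The 3 probe sets of Kcnk3 each had the knock-in pair below the wild-type pair, the dimmest at 7.57 and 7.44 in wild-type and at 7.15 and 6.55 in knock-in hearts. For Kcnd2 the 4 probe sets ran from -0.08 to 0.31. The next brightest had a mean of 7.98, against 8.58 for the chosen one. It was at 8.02 and 7.98 in wild-type and at 7.87 and 8.04 in knock-in hearts, which overlap. Kcna5, Kcnq1, Kcnh2, Kcnv2, Kcnk2, Kcnj14 and Kcnn2 each rested on 1 probe set, so that their values have no second reading on the array.

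**Figure D4:**
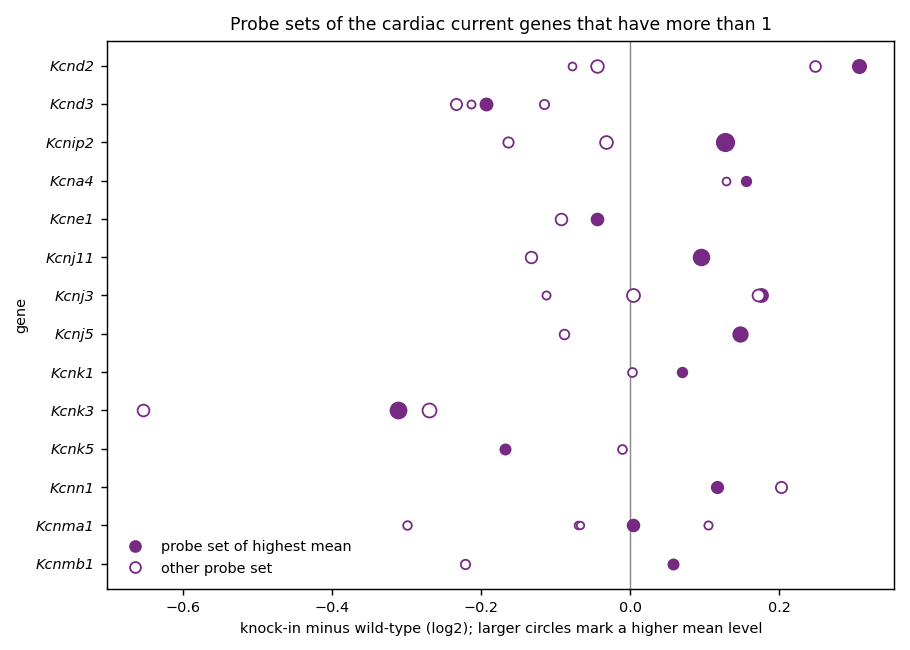
Knock-in minus wild-type log2 difference (horizontal axis) of every probe set of the cardiac current genes that have more than 1 (vertical axis), filled for the probe set of highest mean and with larger circles for higher mean levels. The 3 probe sets of Kcnk3 and the 4 of Kcnd3 lie below 0, while those of Kcnd2 and Kcnip2 lie on both sides.

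Outside the family, 23 of 24 listed partners and regulators of cardiac potassium channels were measured and none passed over all genes. An unadjusted limma p under 0.05 was seen for 4 (17.4% of the 23, against 7.39% of all genes and 9.73% of those above the median level, where 17 of the 23 lay), of which 2 had higher knock-in values. Higher values were seen for Ank2, the gene of the membrane anchor ankyrin-B (10.53 and 10.48 against 10.82 and 10.86, adjusted p of 0.472 from limma), and for Irx4, a ventricular transcription factor (9.39 and 9.43 against 9.77 and 9.70, adjusted p of 0.496). The lower values were those of Lrrc52, a gamma subunit of large conductance channels (5.30 and 5.15 against 4.50 and 4.28, 1.78-fold, adjusted p of 0.222 from limma), and of Tbx3, a transcription factor of conduction tissue (7.19 and 7.34 against 6.90 and 7.08, adjusted p of 0.664). Groups lay apart for these 4 and for 11 of the 23 in all (47.8%, against 36.5% of all genes and 43.9% of those above the median level). Irx3 and Irx5, of the family that shapes the Kcnd2 gradient across the ventricular wall, differed by 0.01 and 0.16.

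Among other channel families, an unadjusted limma p under 0.05 was found in 0 of 11 sodium channel genes, 1 of 24 calcium channel genes, 1 of 7 chloride channel genes and 0 of 2 Hcn genes, where 7.39% of all genes had one, with medians of -0.01, 0.02, 0.00 and 0.10. None of these 44 genes passed over all genes, and differences between the families were not tested.

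The label of heart matched bright cardiac markers, with Myh6 at 14.41 to 14.55 and Tnnt2 at 14.13 to 14.21 on all arrays. Levels below are the mean log2 value of a marker list on an array. Atrial myocyte markers (8 of 8 measured) were at 9.77 and 9.65 in wild-type and at 9.81 and 9.61 in knock-in hearts, and conduction cell markers (6 of 8) at 6.07 and 5.98 against 6.06 and 6.01, which overlap. Ventricular myocyte markers (7 of 8) were at 12.23 and 12.28 against 12.41 and 12.39. The knock-in pair lay above the wild-type pair for each of the 7, as for 19.6% of all genes. Above the median level, where 6 of the 7 lay, 2428 of 9096 genes were so placed. For Myl3 the gap was minimal, with wild-type 1 and knock-in 1 both at 14.71. Myh6 and Tnnt2, named above as cardiac markers, are among the 7, so the list does not separate ventricular from other heart muscle. Of the 7, Irx4 and Hey2 had an unadjusted limma p under 0.05, where 4.40% of all genes were higher at that threshold. Hey2 was dim, at 3.87 and 4.06 in wild-type and at 4.50 and 4.20 in knock-in hearts. Smooth muscle and pericyte markers (8 of 8), of cells in which Kcnj8 and Kcnmb1 are typical, were at 9.98 and 9.97 against 9.96 and 9.80. Of the 8, 6 differed below 0 and 2 above it, from -0.43 for Cnn1 to 0.20 for Pdgfrb. Acta2 alone had an unadjusted limma p under 0.05, with a difference of -0.30, where 2.99% of all genes were lower at that threshold. In whole heart tissue, fewer cells of a type and less RNA per cell cannot be told apart. The part of these shifts in the channel values was not tested.

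Hepatocyte markers (5 of 6 measured) were the one list with every member higher at an unadjusted limma p under 0.05 (as 4.40% of all genes were), at 6.39 and 5.89 in wild-type and at 7.58 and 8.27 in knock-in hearts. Skeletal muscle markers (6 of 6) were at 6.36 and 6.16 against 6.36 and 6.51. Of these Acta1 differed by 1.02 and all the others by -0.10 to 0.10. Endothelial markers (6 of 6) were at 9.87 and 9.82 against 9.58 and 9.92, fibroblast markers (6 of 6) at 10.54 and 10.55 against 10.53 and 10.63, macrophage markers (6 of 6) at 8.74 and 8.82 against 8.82 and 8.89, and neuron and Schwann cell markers (6 of 8) at 5.73 and 5.46 against 5.60 and 5.58. The part of the hepatocyte shift in the channel values was not tested. Gsk3b itself was at 9.62 and 9.72 in wild-type and at 9.82 and 9.87 in knock-in hearts, and a transcript array cannot check the labelled amino acid change.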

How the data were processed

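Total RNA from hearts was labelled with biotin and hybridised to Affymetrix 3' expression arrays, 4 in all. The deposited values are log2 expression values per probe set, made by the authors with RMA in Affymetrix Expression Console, per the submitters' processing notes. Its version and the genome build are not given in the sources used here. Per the labels, the wild-type arrays were normalized only with these knock-in arrays. RMA gives no detection call. Precision is limited by the number of arrays.

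Of 45101 probe sets 64 were controls. The platform annotation gave 1 symbol to 34945, several to 932 and none to 9160, and Entrez identifiers gave a current RefSeq symbol (assembly GRCm38.p6) for 34741 of the 34945. The probe set of highest mean stood for each of 18193 genes, with no filter on dim genes. Groups and replicate numbers came from the sample titles. Knock-in and wild-type arrays were compared in R 4.3.3 by limma 3.58.1 (lmFit, then eBayes with neither trend nor robust prior), two-sided, and p-values were adjusted by Benjamini-Hochberg over the 18193 genes. With 2 arrays a group, the smallest p of an exact permutation test is 0.333, so the result leans on the spread that limma pools over genes. The fit was tested on simulated data.

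The members, lists and tests were chosen with earlier results of these data known. Values in every array are given for members of the listed cardiac currents, for those with an unadjusted p under 0.05, and for the 2 widest differences each way in a class. The promoter motifs were chosen after the values had been seen. Alternatives were a replicate block, an intensity trend with robust prior, 2 further scalings, genes above the median, 3 other choices of probe set and leaving out each array.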

Additional observations from a re-analysis of the deposited data

How the results depend on the processing

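No potassium channel gene had an adjusted limma p under 0.05 in any of the 12 alternatives, and the smallest adjusted p among the 43 members named by rule was 0.289. Over all genes 0 passed with the replicate block or with the first probe set, 22 with an intensity trend and robust prior, 11 each with arrays centred, quantile normalized again or with averaged probe sets, 7 among genes above the median, and 0 without any 1 array. The 2 pairs of arrays that share a replicate number had deviations correlated at -0.03 over genes, so the number shows no pairing, and with the replicate block 3 channel genes were higher and 3 lower at an unadjusted limma p under 0.05.

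At that unadjusted threshold the count of higher channel genes was 5 with the trend, with centring and with averaged probe sets, 1 of 25 above the median, and 0 to 5 when an array was left out. The count of lower ones was 1 with centring, 4 with averaged probe sets, with the most specific ones and after quantile normalization, and 0 to 4 when an array was left out. The median difference ran from -0.073 (without wild-type 2) to 0.033 (without wild-type 1) when an array was left out, against -0.01 with all arrays and a spread of 0.04 between replicates. Of 493 values of named members under alternatives, 463 kept their sign, but many of them could not turn. The replicate block, the trend and the refit of genes above the median leave every difference as it was. The other choices of probe set do so for every gene with 1 probe set. The sign turned with averaged probe sets for Kcnip2 (-0.023), Kcnj11 (-0.019), Kcnma1 (-0.066), Kcnmb1 (-0.082) and Kcnn4 (0.015), with the first probe set for Kcnip2 (-0.16), Kcnj11 (-0.13), Kcnj5 (-0.089), Kcnj9 (0.057), Kcnma1 (-0.071), Kcnn4 (0.16) and Kcnq1ot1 (0.15) and with the most specific probe set for Kcnma1 (-0.30). With 1 array left out it turned for Kcne1 (from -0.20 to 0.11), Kcnj11 (from -0.031 to 0.22), Kcnj12 (from -0.16 to 0.048), Kcnj4 (from -0.053 to 0.30), Kcnj5 (from -0.011 to 0.31), Kcnk12 (from -0.15 to 0.37), Kcnk6 (from -0.29 to 0.023), Kcnma1 (from -0.086 to 0.094), Kcnmb1 (from -0.21 to 0.32), Kcnmb4 (from -0.29 to 0.084), Kcnmb4os2 (from -0.14 to 0.031), Kcnn3 (from -0.12 to 0.33), Kcnq1ot1 (from -0.23 to 0.077) and Kcnt2 (from -0.057 to 0.36), where each range is over the 4 arrays. None of these values had passed. The lone array of a group was assumed to vary like the others.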
